A study of Mus musculus with 18 samples.

Results

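The genes examined were the triacylglycerol lipases and carboxylesterases of the liver, namely *Pnpla2*, *Pnpla3*, *Abhd5*, *Lipe*, *Mgll*, *Lipc*, *Ces1d*, *Ces1f* and *Ces1g*. They were taken by symbol from the expression tables, and all 9 were found, among 23328 symbols with usable estimates. None had a failed estimate, and all 9 passed the minimum mean of 1 FPKM (sequenced fragments of a gene divided by its transcript length and by the mapped reads of the library) that left 10835 genes to test. Liver poly(A) RNA came from 18 male mice fed a high-fat diet (HFD) and aged 20 weeks, with 1 library per mouse. The wild-type group held 9 mice and the *Gpr180*KO group 9 mice. *Gpr180*KO mice were homozygous for a CRISPR/Cas9 deletion of exon 6 of *Gpr180*, made on C57BL/6J and present in all cells of the body, and the wild-type mice came from matings of the same heterozygous stock. How many founder lines stand behind the mice is not given in the sources used here, nor is it stated which mice were littermates or from separate litters.

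Triacylglycerol stored in the lipid droplets of hepatocytes is broken down stepwise in the cytosol. ATGL (*Pnpla2*), with its coactivator CGI-58 (*Abhd5*), releases the first fatty acid, hormone-sensitive lipase (*Lipe*) acts mainly on diacylglycerol, and monoacylglycerol lipase (*Mgll*) on the last intermediate. PNPLA3 is a droplet protein related to ATGL whose gene is induced by feeding and by the lipogenic factor SREBP-1c. Hepatic lipase (*Lipc*) is secreted and acts on phospholipids and triacylglycerol of circulating lipoproteins. Of the carboxylesterases of the *Ces1* group, CES1D, also called triacylglycerol hydrolase, lies in the lumen of the endoplasmic reticulum. There it takes part in the supply of lipid for very-low-density lipoprotein.

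The sample titles come in 2 styles, called title series 1 (mice W317 to W320 and KO319 to KO322, 4 per genotype) and title series 2 (W131, W133, W134, W156, W157 and KO51 to KO54 and KO56, 5 per genotype). They were treated as possible batches, and both hold both genotypes. The range and SD of each group of 9 libraries pool both series and so include any shift between them. The targeted gene, *Gpr180*, ranged from 4.46 to 9.24 FPKM without the deletion and from 0.876 to 1.99 FPKM with it. Summed FPKM per library lay between 554796 and 718746, and KO51, which had the highest sum, was therefore also left out below. Read totals of single libraries are not in the tables. The test between genotypes was limma's moderated test of log2(FPKM + 0.1). Its p-values were adjusted by Benjamini and Hochberg's method over the 10835 genes, and a gene with an adjusted p under 0.05 is said to have been called. Adding 0.1 makes fold changes of weakly expressed genes too small. The deletion group had 464 genes called lower and 49 called higher. Over all 10835 genes tested the median log2 fold change was -0.13, and 2403 (22.2%) had an unadjusted p under 0.05. Median-of-ratios scaling between libraries, which sets the typical gene equal, moved the median over all genes to 0.02 and gave 147 lower and 146 higher genes, so differences are also given relative to the median gene or on that scale. In RNA of whole liver, fewer cells of a type and less RNA per cell cannot be told apart.

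Of the 9 genes, *Abhd5* and *Ces1g* had lower and *Lipc* had higher expression with the deletion. Thus 2 members were called lower, where 4.28% of all genes tested were, and 1 was called higher, where 0.452% were. The other 6 did not pass the threshold. The unadjusted limma p was under 0.05 for 5 of the 9, where 22.2% of all genes tested had one. The median log2 fold change of the members was -0.20, beside -0.13 over all genes tested. With median-of-ratios scaling only *Lipc* passed the threshold, and 0 members were called lower and 1 higher, where 1.36% and 1.35% of all genes were, and the members' median was -0.04. With the title series as a block, 3 were lower (*Ces1d* in addition) and 1 higher, where 9.52% and 1.13% of all genes were. No member had genotype ranges without overlap over the 18 libraries, as 0.231% of the genes tested had.

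**Figure D1:**
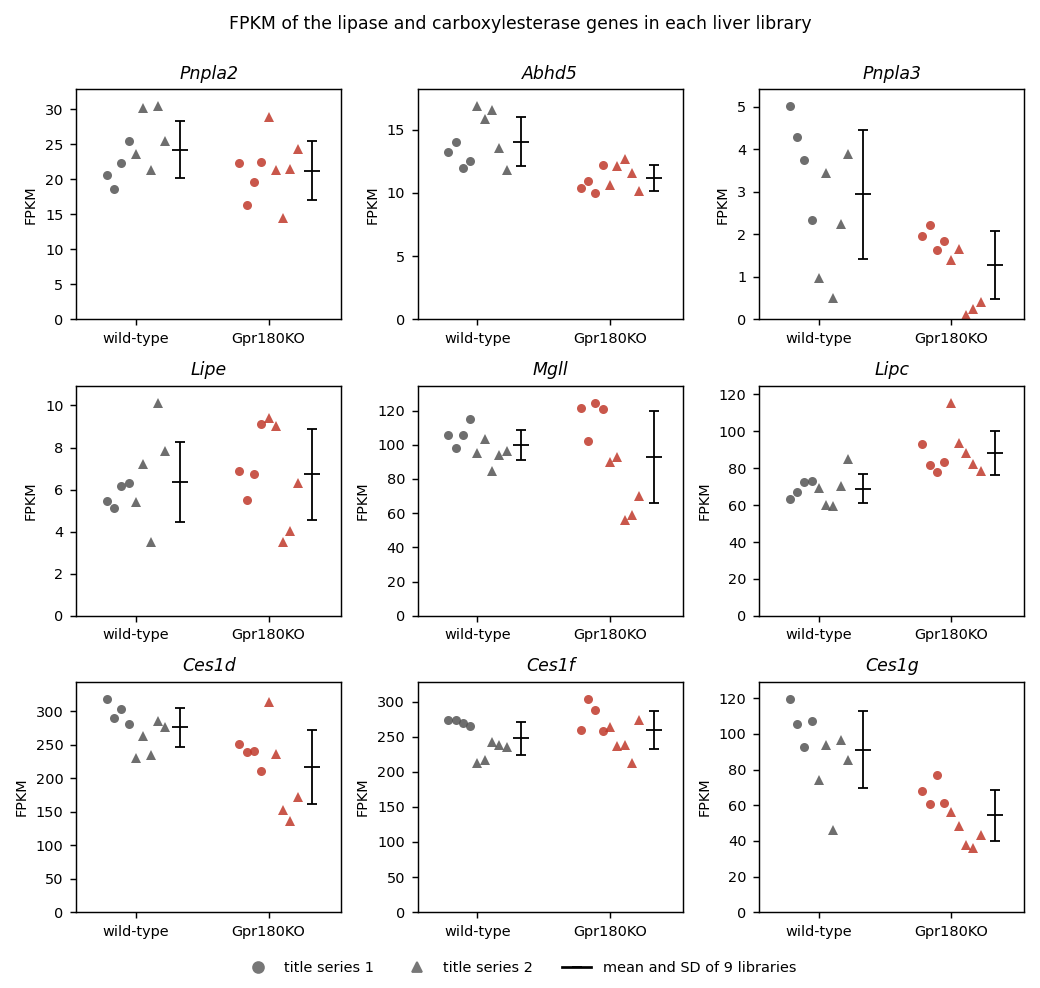
FPKM (linear axis from 0) of each of the 9 genes in every library, with wild-type in grey and *Gpr180*KO in red, circles for title series 1 and triangles for title series 2, and the mean and SD of 9 libraries in black. The *Gpr180*KO points of *Ces1g* and *Abhd5* lie mostly below and those of *Lipc* mostly above the wild-type points, while those of *Ces1f* and *Lipe* overlap the wild-type points over most of their range.

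*Pnpla2* lies on chromosome 7 (GRCm38, 141455188 to 141460743). Its FPKM in wild-type livers was 18.6 at the lowest, 23.6 at the median and 30.4 at the highest (mean 24.2 ± 4.08, SD, n = 9). In *Gpr180*KO livers the lowest was 14.4, the median 21.4 and the highest 28.9 (mean 21.2 ± 4.23, SD, n = 9). The ranges overlapped over most of their width, and 7 of 9 *Gpr180*KO livers lay below the wild-type mean. The log2 fold change was -0.20 (SE 0.12, adjusted p = 0.351), and -0.07 relative to the median gene.

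*Abhd5* (chromosome 9, 122351616 to 122381523) ranged from 11.8 to 16.8 FPKM in wild-type livers with a median of 13.5 (mean 14.0 ± 1.93, SD, n = 9). In *Gpr180*KO livers it ranged from 9.99 to 12.7 FPKM with a median of 11.0 (mean 11.2 ± 0.989, SD, n = 9). Each of the 9 *Gpr180*KO values was under the mean of the wild-type livers, 6 wild-type livers were above every *Gpr180*KO liver, and the other 3 overlapped. The mean fell to 79.6% of that in wild-type livers, and the log2 fold change was -0.32 (SE 0.08, adjusted p = 0.0366). The call was lost with median-of-ratios scaling, where the log2 fold change was -0.17 (adjusted p = 0.348), and in title series 1 (-0.25, adjusted p = 0.0948) and title series 2 (-0.37, adjusted p = 0.161) taken alone. In the GENCODE annotation of GRCm38 the antisense gene A730085K08Rik covers the 3′ end of *Abhd5*, and 28.4% of the 75-base windows of the longest *Abhd5* transcript occur in it. The authors' tables place that gene beyond *Abhd5* and list it at 0 in 16 libraries and at no more than 0.146 FPKM, and since it is not stated that strand was used, reads of the pair cannot be told apart.

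*Lipe* (chromosome 7, 25379527 to 25395987) was low in these livers, at 3.49 to 10.1 FPKM in wild-type with a median of 6.18 (mean 6.36 ± 1.89, SD, n = 9). *Gpr180*KO livers spanned nearly the same range, 3.52 to 9.40 FPKM with a median of 6.74 (mean 6.73 ± 2.16, SD, n = 9). The log2 fold change was 0.06 (SE 0.20, adjusted p = 0.867), but -0.10 in title series 2 alone, and the sign also turned when W134 (-0.04) or KO51 (-0.0046) was left out, so no direction is given. After median-of-ratios scaling the log2 fold change was 0.21 (adjusted p = 0.640).

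*Mgll* (chromosome 6, 88724412 to 88828360) was far more highly expressed, with 84.9 to 115 FPKM in wild-type livers and a median of 98.4 (mean 99.8 ± 8.73, SD, n = 9). *Gpr180*KO livers ranged from 55.9 to 125 FPKM with a median of 92.6 (mean 92.9 ± 26.7, SD, n = 9). Thus *Gpr180*KO livers lay on both sides of the wild-type range, 3 above it, all of title series 1, and 3 below it, all of title series 2. Over all libraries the log2 fold change was -0.16 (SE 0.15, adjusted p = 0.534). Relative to the median gene it was -0.03, and after median-of-ratios scaling -0.0038 (adjusted p = 0.992). Within title series 1 it was 0.14 (adjusted p = 0.293) and within title series 2 -0.39 (adjusted p = 0.206). The difference between the series, -0.53 (SE 0.19), had an unadjusted p of 0.0115 from limma's interaction term, and an adjusted p of 0.589. By that interaction 0 of 9 members and 0% of the genes tested were called, and *Mgll* was the only member with an unadjusted p under 0.05, as 833 of the genes tested had.

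Within a library, the ratio of the coactivator to its lipase did not separate the genotypes. *Abhd5* to *Pnpla2* FPKM was 0.445 to 0.773 in wild-type livers (median 0.538) and 0.368 to 0.879 in *Gpr180*KO livers (median 0.540). The mean log2 ratio differed by -0.12 (two-sided exact permutation test over 48620 splits, n = 9 and 9, p = 0.446). *G0s2*, which encodes the inhibitor of ATGL, was 3.89 to 10.4 times as high as *Pnpla2* in wild-type livers (median 7.08) and 3.38 to 11.3 times in *Gpr180*KO livers (median 7.46). That log2 ratio differed by 0.08 (two-sided exact permutation test, n = 9 and 9, p = 0.758), and by -0.06 in title series 2.

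*Pnpla3* (chromosome 15, 84167816 to 84189521) had the lowest level of the 9 genes and the widest spread relative to its mean, with an SD of 51.9% of the mean in wild-type and 62.9% in *Gpr180*KO livers. Wild-type livers ranged from 0.499 to 5.01 FPKM with a median of 3.45 (mean 2.94 ± 1.52, SD, n = 9), and *Gpr180*KO livers from 0.105 to 2.21 FPKM with a median of 1.63 (mean 1.27 ± 0.800, SD, n = 9). The wild-type mean exceeded each of the 9 *Gpr180*KO values, and 7 wild-type livers were above every *Gpr180*KO liver. The remaining wild-type livers, W131 at 0.979 and W134 at 0.499 FPKM, lay among the *Gpr180*KO values. The log2 fold change of -1.28 (SE 0.50) had an adjusted p of 0.140 and was not called. After median-of-ratios scaling it was -1.15 (adjusted p = 0.218). In title series 1, where the lowest wild-type value (2.33 FPKM) was above the highest *Gpr180*KO value (2.21 FPKM), the log2 fold change was -0.93 (adjusted p = 0.0450). Title series 2 gave -1.56 with an adjusted p of 0.265.

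*Lipc* (chromosome 9, 70798128 to 70934808) was the one member called higher in *Gpr180*KO livers. Wild-type livers ranged from 59.5 to 84.8 FPKM with a median of 69.4 (mean 68.9 ± 7.79, SD, n = 9). *Gpr180*KO livers ranged from 77.8 to 115 FPKM with a median of 83.2 (mean 88.2 ± 11.7, SD, n = 9). Wild-type mouse W157 (84.8 FPKM) alone overlapped the *Gpr180*KO livers, and the other 8 wild-type livers lay below every one of them. Its log2 fold change was 0.35 (SE 0.08, adjusted p = 0.0261), with a mean of 128% of that in wild-type livers. On the median-of-ratios scale it was 0.51 (adjusted p = 0.0263), and without KO51, whose 115 FPKM was the highest value, 0.30 (adjusted p = 0.0190). The direction was the same in title series 1 (0.28, adjusted p = 0.0536) and title series 2 (0.41, adjusted p = 0.156), where neither value alone passed the threshold.

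*Ces1d*, *Ces1f* and *Ces1g* stand close together on chromosome 8, at 93166072 to 93197804, 93256236 to 93279736 and 93302369 to 93337209. Their coding sequences are alike, with 77.6% identity of *Ces1d* and *Ces1f*, 81.6% of *Ces1d* and *Ces1g*, and 74.4% of *Ces1f* and *Ces1g* in GENCODE transcripts. To show how far the 3 can be told apart in the stretch that encodes the active site, 75 coding bases (the read length) around the codon of the catalytic serine (residue 221) are given, written 5′ to 3′ along the minus strand, with capitals for bases that differ from *Ces1d*. Each stretch crosses an exon junction and spans chr8:93186110-93187808 (*Ces1d*), chr8:93268083-93270039 (*Ces1f*) and chr8:93326859-93328443 (*Ces1g*) of GRCm38.
Ces1d: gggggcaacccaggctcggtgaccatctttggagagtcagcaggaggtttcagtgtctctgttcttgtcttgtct
Ces1f: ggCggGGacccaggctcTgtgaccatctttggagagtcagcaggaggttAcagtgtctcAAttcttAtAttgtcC
Ces1g: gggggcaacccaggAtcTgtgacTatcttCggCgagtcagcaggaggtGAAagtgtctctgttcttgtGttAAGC
*Ces1f* differed from *Ces1d* at 10 and *Ces1g* at 13 of the 75 bases. Over the longest transcript of each, 0 windows of 75 bases of any of the 3 occurred unchanged in a transcript of another gene, on either strand. Only exact matches were searched, so this does not show how reads aligned with mismatches were assigned.

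*Ces1d* was the most highly expressed member in wild-type livers, at 229 to 317.9 FPKM with a median of 281 (mean 276 ± 29.3, SD, n = 9). *Gpr180*KO livers ranged from 136 to 313 FPKM with a median of 236 (mean 217 ± 55.5, SD, n = 9). In *Gpr180*KO livers the values spread widely, with KO53, KO54 and KO56 at 152, 136 and 173 FPKM and KO51 at 313 FPKM. The log2 fold change was -0.38 (SE 0.13, adjusted p = 0.0945), which did not pass the threshold. It did in title series 1 (-0.34, adjusted p = 0.0328), where the genotypes did not overlap, and without KO51 (-0.46, adjusted p = 0.0338), but not in title series 2 (-0.42, adjusted p = 0.311) or on the median-of-ratios scale (-0.23, adjusted p = 0.401).

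*Ces1f* did not pass the threshold. It ranged from 213 to 274 FPKM in wild-type livers with a median of 242 (mean 247 ± 23.8, SD, n = 9) and from 213 to 303 FPKM in *Gpr180*KO livers with a median of 259.7 (mean 259 ± 27.5, SD, n = 9). Its log2 fold change was 0.07 (SE 0.08, adjusted p = 0.621). With median-of-ratios scaling it was 0.22 (adjusted p = 0.118). Wild-type values of *Ces1f* were 265 to 274 FPKM in title series 1 and 213 to 242 FPKM in title series 2, without overlap.

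*Ces1g* was lower in *Gpr180*KO livers. Wild-type livers ranged from 45.9 to 119 FPKM with a median of 93.9 (mean 91.2 ± 21.4, SD, n = 9), and *Gpr180*KO livers from 35.7 to 77.1 FPKM with a median of 56.2 (mean 54.3 ± 14.1, SD, n = 9). Again the 9 *Gpr180*KO values all lay under the mean of the wild-type group and 7 wild-type livers were above every *Gpr180*KO liver, the others being W131 (74.1 FPKM) and W134 (45.9 FPKM). The mean fell to 59.5% of that in wild-type livers, and the log2 fold change was -0.75 (SE 0.17, adjusted p = 0.0226). It was -0.67 in title series 1 (adjusted p = 0.0226) and -0.81 in title series 2 (adjusted p = 0.115). On the median-of-ratios scale the value of -0.59 missed the threshold (adjusted p = 0.0529), but with that scaling and the series as a block it passed (adjusted p = 0.0161).

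*Ces1d* and *Ces1f*, with *Ces1e* between them on the chromosome, differed in their order between the genotypes. The ratio of *Ces1f* to *Ces1d* FPKM in a library was 0.826 to 1.03 in wild-type livers (median 0.888) and 0.840 to 1.58 in *Gpr180*KO livers (median 1.23). It was above 1 in 1 of 9 wild-type livers (W134) and in 8 of 9 *Gpr180*KO livers, all but KO51. The mean log2 ratio was higher by 0.45 in *Gpr180*KO livers (two-sided exact permutation test over 48620 splits, n = 9 and 9, p = 0.00132, adjusted p = 0.00395 over the 3 ratios). Within title series 1 the difference was 0.38 (exact permutation p = 0.0286, the smallest that 4 against 4 allow), and within title series 2 it was 0.51 (exact permutation p = 0.0714). A ratio within a library does not depend on the scaling between libraries. The sum of the 3 carboxylesterases was 614 ± 67.5 FPKM in the wild-type group, with a range of 517 to 711. It was 530.4 ± 84.5 FPKM with the deletion, with a range of 385 to 633 (SD, n = 9 each).

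**Figure D2:**
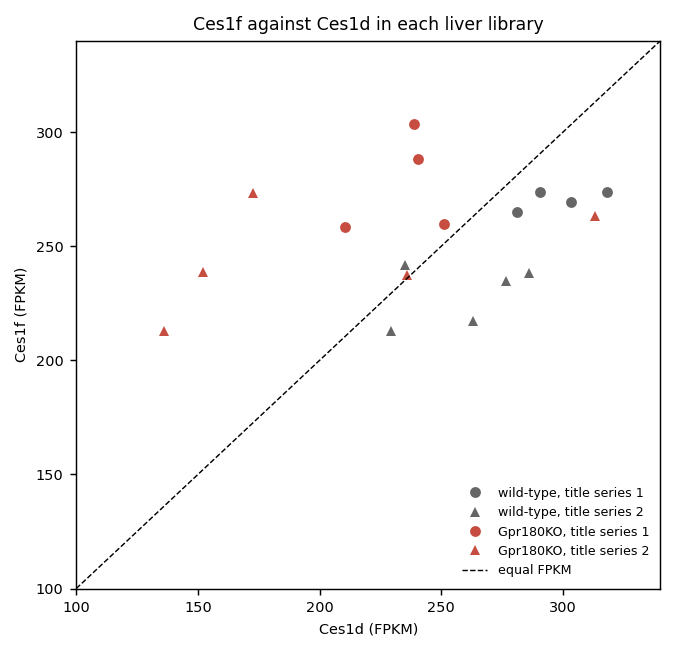
*Ces1f* FPKM against *Ces1d* FPKM, both on linear axes, 1 point per library, with the dashed line at equal values. The *Gpr180*KO libraries lie on or above the line except KO51, and the wild-type libraries below it except W134.

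Taken alone, title series 1 called 3 members lower (*Pnpla3*, *Ces1d* and *Ces1g*) and 0 higher, where 4.5% and 0.831% of the genes tested were called. Title series 2 called none of the members, and 0% of the genes tested in either direction, though 2019 genes had an unadjusted p under 0.05. Within title series 1, 4 members (*Pnpla3*, *Lipc*, *Ces1d* and *Ces1g*) had genotype ranges that did not overlap, in a series where 14.7% of the genes tested had none. In title series 2 no member did, where 6.05% of the genes tested did. KO53, KO54 and KO56 of that series were the 3 lowest *Gpr180*KO libraries for 4 members, *Pnpla3*, *Mgll*, *Ces1d* and *Ces1g*. In wild-type livers W134 was the lowest library for 5 members, *Pnpla3*, *Lipe*, *Mgll*, *Lipc* and *Ces1g*. KO51 was the highest *Gpr180*KO library for *Pnpla2*, *Lipe*, *Lipc* and *Ces1d*. How often the same libraries were extreme over all genes tested was not counted. Leaving out any of W317, W318 or W133 left none of the 3 calls, with adjusted p between 0.0517 and 0.0812.

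**Figure D3:**
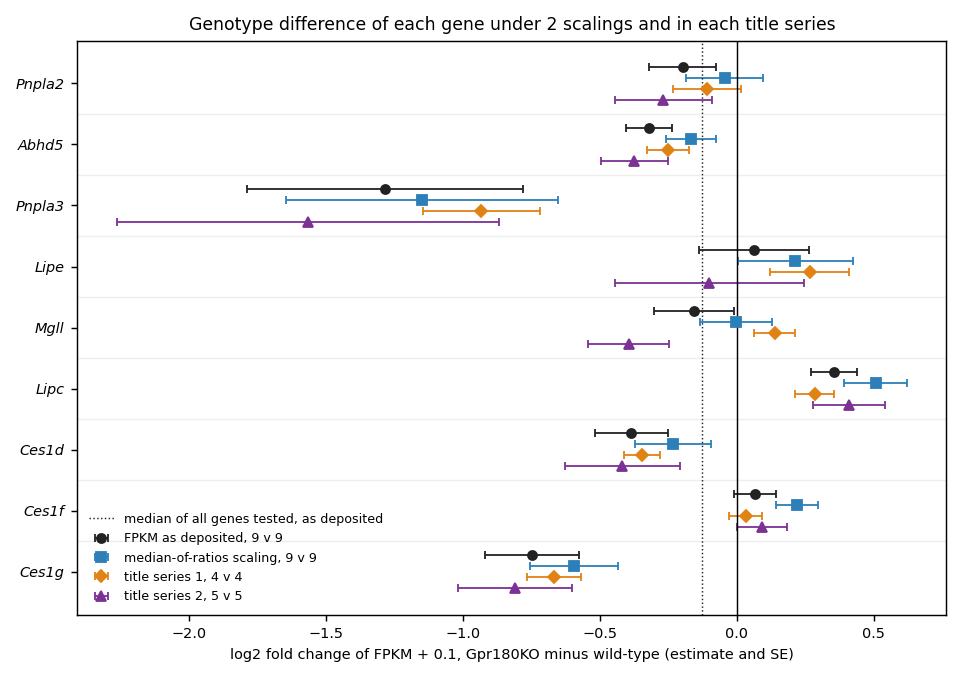
Log2 fold change of FPKM + 0.1, *Gpr180*KO minus wild-type, with its SE, for each of the 9 genes from all libraries as deposited (black circles), after median-of-ratios scaling (blue squares), and in title series 1 (orange diamonds) and 2 (purple triangles). *Ces1g* and *Pnpla3* lie left and *Lipc* right of 0 in each, while *Mgll* and *Lipe* lie on different sides in the 2 series.

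FPKM is per length, which lets levels be set side by side between genes. The value lay outside its own bounds in 18 libraries for *Lipc*, *Ces1d* and *Ces1f* and in 13 for *Ces1g*. For *Mgll* it did so in 0 libraries, so the order of these genes is less sure. In wild-type livers the order of mean FPKM was *Ces1d*, *Ces1f*, *Mgll*, *Ces1g*, *Lipc*, *Pnpla2*, *Abhd5*, *Lipe* and *Pnpla3*. Between neighbours of that order the ranges overlapped for *Ces1d* and *Ces1f*, *Mgll* and *Ces1g*, *Ces1g* and *Lipc*, and *Lipe* and *Pnpla3*, while the other 4 pairs were apart. In *Gpr180*KO livers *Ces1f* came before *Ces1d* and *Lipc* before *Ces1g*. *Lipc* was above *Ces1g* in 9 of 9 *Gpr180*KO libraries and below it in 8 of 9 wild-type libraries. *Mgll* and *Lipc* could not be ranked in *Gpr180*KO livers, where *Mgll* was the higher in 4 of 9 libraries.

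The 250 bases before the RefSeq transcription start (GRCm38.p6) of the 3 genes called are shown because these were the members called, with the dinucleotide CG in capitals, 5′ to 3′ on the gene's strand. They are chr9:122351366-122351615 (plus strand) for *Abhd5*, chr8:93337210-93337459 (minus) for *Ces1g* and chr9:70934809-70935058 (minus) for *Lipc*, the last before the start that the tables use.
Abhd5: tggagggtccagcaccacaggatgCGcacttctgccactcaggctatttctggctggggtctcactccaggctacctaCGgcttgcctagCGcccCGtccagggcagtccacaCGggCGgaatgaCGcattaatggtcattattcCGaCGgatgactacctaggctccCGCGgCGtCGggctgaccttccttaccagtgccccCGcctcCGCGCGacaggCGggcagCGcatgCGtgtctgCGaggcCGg
Ces1g: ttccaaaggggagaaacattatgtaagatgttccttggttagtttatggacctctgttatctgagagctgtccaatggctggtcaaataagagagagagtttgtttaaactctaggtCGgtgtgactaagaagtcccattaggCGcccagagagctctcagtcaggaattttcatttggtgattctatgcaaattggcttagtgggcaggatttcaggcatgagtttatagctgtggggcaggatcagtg
Lipc: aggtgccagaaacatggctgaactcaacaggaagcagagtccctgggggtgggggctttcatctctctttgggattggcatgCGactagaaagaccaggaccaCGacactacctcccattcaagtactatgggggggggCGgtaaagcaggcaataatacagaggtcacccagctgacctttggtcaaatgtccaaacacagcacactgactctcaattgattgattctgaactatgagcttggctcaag
*Abhd5* held 22 CG dinucleotides in this stretch, more than 85.2% of the 32851 promoters of the table, whose median was 6. *Ces1g* held 2 and *Lipc* 3, which 18.8% and 29.0% of the promoters fell below. Promoters of 7 of the 9 members were matched, with 10 starts in all. Both strands of 250 bases before to 50 after each start were searched for the sterol response element TCACNCCAC, held by 1.24% of all promoters, the E-box CACGTG (7.15%), the DR1 element of nuclear receptors (0.381%) and the forkhead motif GTAAACA (3.65%). Only starts of *Mgll* and *Lipe* held any. For *Mgll* an E-box match began 44 and a forkhead match 241 bases before the start, and for *Lipe* a forkhead match began 119 bases before one start and an E-box match 155 bases before another. No matches overlapped, and these are letters in a window, not binding sites.

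Genes of related function were described from 5 further lists of 58 genes, 44 of which were tested. Of the other carboxylesterases, 17 were listed, 15 are in the tables and 9 were tested, of which 3 were higher and none lower with the deletion, where 0.452% and 4.28% of all genes were, with an unadjusted p under 0.05 for 5, where 22.2% of all genes had one. Their median log2 fold change was 0.16. *Ces2a* rose from 50.1 ± 11.3 to 77.1 ± 16.2 FPKM (SD, n = 9 each, log2 fold change 0.63, limma adjusted p = 0.0169). *Ces3b* rose from 172 ± 49.4 to 267 ± 65.0 FPKM (0.64, limma adjusted p = 0.0342). *Ces3a* rose from 699 ± 106 to 881 ± 88.6 FPKM (0.34, limma adjusted p = 0.0394). With median-of-ratios scaling 3 were again higher and 0 lower, and the median was 0.31. With the title series as a block 2 were lower as well, *Ces2c* and *Ces2g* (adjusted p = 0.0300 and 0.00777), whose log2 fold changes were -0.61 and -0.53. In that fit 9.52% of all genes tested were called lower. *Ces1c*, the plasma carboxylesterase and the highest of the list at 1036 ± 128 FPKM in wild-type livers, was at 1129 ± 106 FPKM in *Gpr180*KO livers (0.13, limma adjusted p = 0.372).

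**Figure D4:**
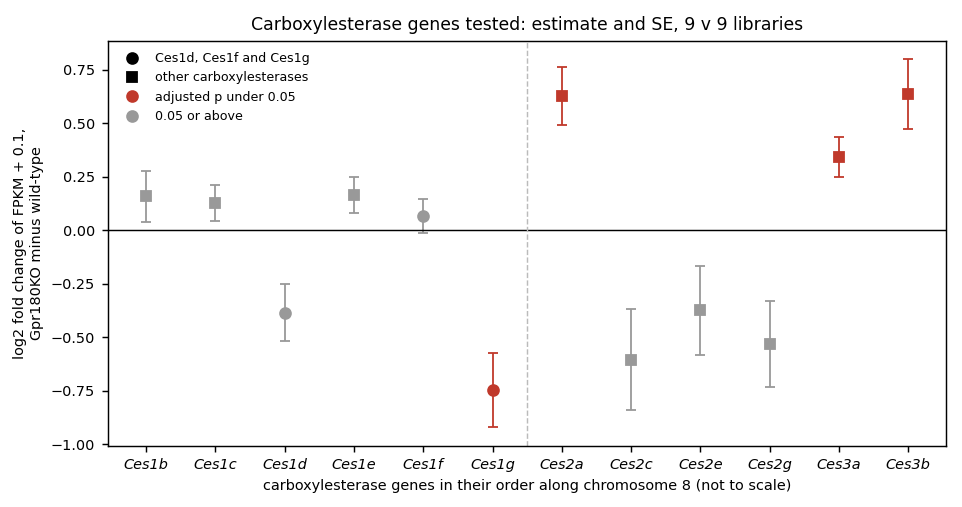
Log2 fold change of FPKM + 0.1 with its SE (9 against 9 libraries) for the 12 carboxylesterase genes tested, in their order along chromosome 8, with circles for *Ces1d*, *Ces1f* and *Ces1g*, squares for the others and red for an adjusted p under 0.05. *Ces1g* lies below 0 and *Ces2a*, *Ces3a* and *Ces3b* above it, and the genes beside *Ces1d* and *Ces1g* in the *Ces1* group lie between 0.07 and 0.17.

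Among other patatin-like phospholipases 3 of 5 listed genes were tested and none was called (median -0.13, unadjusted p under 0.05 for 1). The highest were *Pnpla8* at 38.2 ± 2.26 and *Pnpla7* at 31.0 ± 2.30 FPKM in wild-type livers, with log2 fold changes of -0.13 and 0.28 (adjusted p = 0.517 and 0.209), and then *Pnpla6* (-0.14, adjusted p = 0.660). Of other lipid hydrolases 12 of 14 listed were tested, and 1 was lower and none higher, where 4.28% and 0.452% of all genes were. Their median was -0.21, and 6 had an unadjusted limma p under 0.05, where 22.2% of all genes had one. *Nceh1*, a neutral cholesterol ester hydrolase, fell from 14.0 ± 2.36 to 8.79 ± 2.86 FPKM (SD, n = 9 each, log2 fold change -0.71, limma adjusted p = 0.0205), and remained called with median-of-ratios scaling (-0.56, limma adjusted p = 0.0471). With the title series as a block 2 were lower, where 9.52% of all genes were, *Abhd4* (-0.27, limma adjusted p = 0.0140) in addition. The highest of that list were *Aadac* (0.15), *Faah* (0.06) and *Abhd3* (-0.23), none called. *Lipa*, the lysosomal acid lipase, had a failed estimate and was left out.

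Of the regulators of cytosolic lipolysis 10 of 12 listed genes were tested and none was called (median -0.15, unadjusted p under 0.05 for 3). *Plin2*, a coat protein of lipid droplets, was at 578 ± 130 and 495 ± 124 FPKM (-0.23, limma adjusted p = 0.385), *G0s2* at 157.03 ± 42.4 and 151 ± 60.7 FPKM (-0.11, limma adjusted p = 0.772) and *Cidec* at 54.4 ± 17.4 and 33.1 ± 19.9 FPKM (-1.12, limma adjusted p = 0.217) in wild-type and *Gpr180*KO livers. With the title series as a block 1 of 10 was lower, where 9.52% of all genes tested were. It was *Prkaca* (-0.23, limma adjusted p = 0.0207), a catalytic subunit of protein kinase A. Of the 10 endothelial and lipoprotein lipase genes with their regulators all were tested and none was called (median -0.02, unadjusted p under 0.05 for 0, also 0 called with median-of-ratios scaling and with the series as a block). *Apoc3* (0.05), *Apoc2* (-0.09) and *Apoa5* (0.13), which modulate lipoprotein lipase, were the highest, and *Lpl* itself was at 9.50 ± 3.01 and 7.54 ± 2.53 FPKM (-0.32, limma adjusted p = 0.377).

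Marker genes were read for the cell types the liver samples could hold. All 8 hepatocyte markers were expressed, their summed FPKM ranging from 19130 to 24087 (wild-type) and from 21834 to 35178 (*Gpr180*KO), and 1 was called, *Serpina1c*, higher by 0.52 (limma adjusted p = 0.0436). Beside it the highest were *Apoa1*, *Ttr* and *Cyp2e1*, which had log2 fold changes of 0.21, 0.02 and 0.08. Of 8 adipocyte markers *Plin1* and *Ucp1* were listed at 0 in all libraries, and *Adipoq* and *Lep* reached 0.0897 and 0.0134 FPKM. *Cfd* and *Cidea*, which reached 278 and 48.2 FPKM in *Gpr180*KO livers, alone had a mean of at least 1 FPKM and were not called. They made the list's sum range from 9.44 to 67.1 FPKM (wild-type) and from 4.504 to 327 FPKM (*Gpr180*KO). Whether the samples held adipocyte RNA was not tested. *Retn* was at most 1.26 FPKM. Of 8 macrophage markers, all tested, *Cd68* was lower (-0.69, limma adjusted p = 0.0257), and their sum ranged from 183 to 484 FPKM and from 219 to 313 FPKM. The highest were *Lyz2* (-0.56), *Cd5l* (-0.20) and *Clec4f* (0.16). None of the 5 endothelial markers tested of 6 was called (unadjusted p under 0.05 for 0, 0 called with median-of-ratios scaling), with *Clec4g* the highest (-0.05), then *Kdr* (-0.08) and *Cdh5* (-0.29), and sums of 72.9 to 120 and 66.1 to 109 FPKM. Of 6 pancreatic acinar markers *Pnlip*, the pancreatic lipase, was listed at 0 in all libraries and *Cel*, *Amy2a5* and the others did not exceed 0.218 FPKM, apart from *Cela1* (8.03 ± 2.27 and 13.9 ± 5.74 FPKM, log2 fold change 0.74, limma adjusted p = 0.0552, but 0.0489 with median-of-ratios scaling and 0.0393 with the series as a block), so the sum of 4.77 to 10.3 and 7.46 to 26.6 FPKM was almost all *Cela1*. The part of the macrophage and hepatocyte markers in the differences of *Abhd5*, *Ces1g* and *Lipc* was not tested.

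For each gene called, the 3 genes whose deviations from the genotype means were most alike over the 18 libraries are given as a description, without a test, since libraries share depth and scaling. Differences between the title series were not removed from these deviations. *Lipc* was most like *Ces2a* (Pearson r = 0.850), *Upb1* (0.836) and *Lect1* (0.821), and without KO51, the library farthest from its genotype mean, these were 0.798, 0.736 and 0.790. *Ces1g* was most like *Hdac3* (0.956), *Pctp* (0.941) and *Cs* (0.935), with 0.934, 0.905 and 0.925 without W134. *Abhd5* was most like 4930453N24Rik (0.822), *Pibf1* (0.816) and *Scara5* (0.814), with 0.788, 0.782 and 0.768 without W131. Of these 9 genes *Ces2a* alone was called between the genotypes.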

How the data were processed

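Liver poly(A) RNA of 9 wild-type and 9 *Gpr180*KO mice was sequenced as 75 base single reads and, per the submitters' processing notes, aligned with TopHat to GRCm38 (mm10). The authors deposited 1 table of FPKM per mouse, with lower and upper bounds and a status for each gene. The tool that computed FPKM, its annotation and its use of strand are not given in the sources used here. Tables hold 23847 entries. FPKM of entries with the same symbol was summed (23352 symbols), and 24 genes with failed estimates were left out. FPKM does not keep the read count, and the methods give only an approximate range of reads over all samples, so the reads behind a value are not known. The deposited FPKM lay outside its own bounds in 18 libraries for *Lipc*, *Ces1d* and *Ces1f* and in 13 for *Ces1g*, so the bounds were not used as errors.

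Genotype was taken from the sample labels, and nothing states how litters were distributed, so p-values measure the spread between these mice. Genes with a mean of at least 1 FPKM entered a linear model of log2(FPKM + 0.1) in limma 3.58.1 (R 4.3.3, eBayes with trend). The interaction of genotype and title series was fitted in the same way. Ratios were compared with exact permutation tests (numpy 2.4.6 and pandas 2.3.3 in Python 3.11.15), and figures drawn with matplotlib 3.10.9. The limma step was tested on simulated data. *Angptl8* and *Adgre1* are listed in the tables under the symbols *Gm6484* and *Emr1*. Alternatives were pseudocounts of 1 and 0.01, minimums of 0.1 or 5 FPKM or none, scaling to TPM, to the 75th percentile or by median of ratios, the title series as a block or each alone, eBayes without trend, weights per library, an exact permutation test per gene, and each library left out. A block for the title series together with median-of-ratios scaling, and the count of CG dinucleotides, were chosen after seeing the data. Sequences are from RefSeq (promoters, GRCm38.p6) and GENCODE transcripts of GRCm38.

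The 9 members and all lists were chosen with earlier results of these data known. The genes named are the members, *Gpr180*, the genes called and the 3 most highly expressed of each list, and the 3 genes most like each member called. Others named (*Lpl*, *Lipa*, *Ces2c*, *Ces2g*, *Abhd4*, *Prkaca*, *Pnlip*, *Cel*, *Amy2a5*, *Plin1*, *Ucp1*, *Adipoq*, *Lep*, *Retn*, *Cfd*, *Cidea* and *Cela1*, and the genes that share windows with members) were added after their values were seen.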

Additional observations from a re-analysis of the deposited data

Results flagged for a closer look

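The highest and lowest library of each member and of each of the 3 ratios were compared with the rest of their genotype, in 24 groups of 9 libraries. In 1 of them a library stood apart: *Lipc* in KO51 was at 115 FPKM, beside 77.8 to 93.6 FPKM in the other *Gpr180*KO livers. Its gap to the next library was 0.581 of the group's range, above Dixon's critical value of 0.493. Chance alone flags about 1 in 20 such groups. KO51 also had the highest FPKM sum of the 18 libraries. Its median-of-ratios factor, by which values are divided on that scale, was the lowest of the 18 at 0.819.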

How the results depend on the processing

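The direction of *Pnpla2*, *Pnpla3*, *Abhd5*, *Lipc*, *Ces1d*, *Ces1f* and *Ces1g* held in every alternative that gave a value, *Pnpla3* having none at a minimum of 5 FPKM. *Lipe* turned to -0.10 in title series 2, -0.035 without W134 and -0.0046 without KO51 (0.17 at most with a library left out), and *Mgll* to 0.14 in title series 1 and 0.028 with weights per library. *Lipc* was called in 12 of 14 alternatives (0.28 to 0.51), *Ces1g* in 12 (-0.81 to -0.59), *Abhd5* in 9 (-0.37 to -0.17) and *Ces1d* in 4 (-0.42 to -0.23). Members called lower numbered 2, where 464 of the 10835 genes tested were called lower. They numbered 0 with median-of-ratios scaling (147 genes) and in title series 2 (0 genes). They numbered 1 with 75th percentile scaling (172 genes) and with median-of-ratios scaling and the series as a block (332 genes). They numbered 3 with TPM scaling (536 genes), the series as a block (1031), weights per library (1161) and in title series 1 (488). By the unadjusted exact permutation test 4 were lower, but that test was not run over all genes, so no share is given. Members called higher numbered 1, where 49 genes were, but 0 in title series 1 (90 genes) and title series 2 (0 genes) alone. With 1 library left out, the number lower ranged from 0 to 3 and the number higher from 0 to 1. Both were 0 without W317, W318 or W133, and without KO52 1 was lower and none higher. *Abhd5* alone was lost without W131, W134, W156, KO320, KO54 or KO56. The cause was not tested. Of the genes tested, calls fell from 513 to between 132 and 169 without W317, W318 or W133, rose to 1331 with weights per library and 1153 with the series as a block, and were 0 in title series 2 (2019 at an unadjusted p under 0.05 there), 293 with median-of-ratios scaling, 282 with 75th percentile scaling and 238 at a minimum of 5 FPKM. Of the 44 listed genes tested, those called lower rose from 1 to 5 with the series as a block. Over all genes tested the share called lower rose from 4.28% to 9.52%. The *Ces1f* to *Ces1d* difference, 0.45, was 0.51 with an exact permutation p of 0.0714 in title series 2 and 0.41 to 0.52 with a library left out. *Abhd5* to *Pnpla2* ranged from -0.21 to -0.06 and *G0s2* to *Pnpla2* from -0.0092 to 0.21 with a library left out, the latter turning to -0.060 in title series 2, to -0.0017 and -0.0046 without W133 or W156, and to -0.0092 and -0.0089 without KO319 or KO320. The titles number mice and not replicates. Only 2 of these numbers, both in title series 1, occur in both genotypes, the labels name no pairing, and no paired fit was run. The reads per library are not known, and the low level of *Pnpla3* and *Lipe* limits their precision.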
